A study of Mus musculus with 171 samples.

Results

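The cells described here are the wild-type inner cell mass (ICM) cells with the most and the least Stat3 mRNA. They were chosen from the 64 wild-type ICM cells taken at embryonic day (E) 3.5, which were ranked by Stat3 CPM (the Stat3 counts of a cell per 1000000 of all its counts). The 21 highest are called Stat3-high and the 21 lowest Stat3-low, and the 22 between them are called middle. The comparison thus used 42 of the 171 cells in the series. It asks which other transcripts follow the Stat3 level in cells with an intact gene. All 64 cells carry the genotype Stat3 +/+ and came from 5 embryos, and no treatment is recorded. The other cells are 55 Stat3 -/- (MUT) ICM cells at E3.5 and, at E3.75, 9 MUT and 19 wild-type (WT) epiblast (EPI) cells and 14 MUT and 10 WT primitive endoderm (PrE) cells. Strain, age of the mother and the way the Stat3 -/- embryos were made are not stated in the labels.

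STAT3 is the transcription factor that LIF, IL-6 and related cytokines activate. Their receptors share the subunit gp130, bound JAK kinases phosphorylate STAT3, and the phosphorylated factor enters the nucleus and induces targets that include its own inhibitor Socs3. In mouse embryonic stem cells this route sustains naive pluripotency through targets such as Tfcp2l1 and Klf4. The ICM is the inner group of blastocyst cells that sorts into EPI, the source of the embryo proper, and PrE, the source of the yolk sac endoderm. The mRNA level ranked here measures neither the phosphorylated protein nor its activity.

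Stat3 (chromosome 11, 100885098 to 100939540, minus strand, mm10) chose the cells, so its own values are a description. Stat3 ranged from 90.4 to 309 CPM in Stat3-high cells, with a median of 147, against 0 to 13.5 CPM in Stat3-low cells, with a median of 2.27. Middle cells held 13.8 to 88.8 CPM. The medians of the high and low classes differed 64.5-fold. The cutoffs fell inside a continuous range. The last Stat3-high cell had 90.4 CPM (95% Poisson interval 77.0 to 105, counting error only) and the first middle cell 88.8 CPM. At the lower edge, the last middle cell had 13.8 CPM on 7 Stat3 counts and the first Stat3-low cell 13.5 CPM on 80 counts. Of the 21 Stat3-low cells, 13 had a total above 5000000 counts, and the lowest Stat3-high lower bound, 77.0 CPM, lay above the highest Stat3-low upper bound, 33.3 CPM. Under 5 CPM lay 15 Stat3-low cells and, for scale, 36 of the 55 MUT ICM cells.

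**Figure D1:**
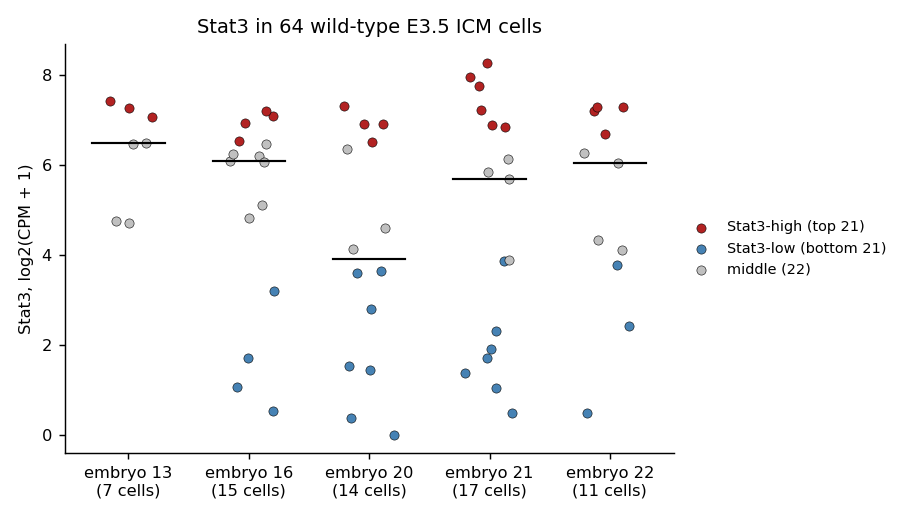
Stat3 level, as log2(CPM + 1), of each wild-type ICM cell by embryo (points, coloured by class), with the embryo median as a bar. Stat3-high and Stat3-low cells occur together in embryos 16, 20, 21 and 22, and embryo 13 has no Stat3-low cell.

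Stat3 varied within embryos more than between them. Embryo 16 held 4 Stat3-high and 4 Stat3-low cells, embryo 20 held 4 Stat3-high and 7 Stat3-low, embryo 21 held 6 Stat3-high and 7 Stat3-low, and embryo 22 held 4 Stat3-high and 3 Stat3-low cells. Embryo 13 held 3 Stat3-high and 0 Stat3-low cells, so it adds nothing to a comparison within embryos. Differences between embryos made up 7.35% of the variance of Stat3 on the log2(CPM + 1) scale. This spread is not unusual for a transcript of its level. The coefficient of variation of Stat3 over the 64 cells was 1.01, and it was higher in 81.0% of the 1570 genes whose mean lay within 1.5-fold of the 68.3 CPM of Stat3 (median 1.26).

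Depth and content moved with the ranking to some degree. Total counts per cell had a median of 3844885 in Stat3-high and 5786088 in Stat3-low cells, and the embryo medians were lower in Stat3-high cells in 4 of 4 embryos. The exact two-sided sign-flip permutation test over these 4 pairs gave p = 0.125, the smallest it can give. Mitochondrial genes took 9.45% ± 0.796 of counts in Stat3-high and 10.05% ± 0.897 in Stat3-low cells (SD over 4 embryo medians; exact permutation p = 0.375). The titles carry a letter whose meaning is not given; letter F marked 3 Stat3-high and 8 Stat3-low cells, and letter D marked 7 Stat3-high and 4 Stat3-low cells. Of 9 EPI markers, Nanog, Pou5f1, Tdgf1 and Zfp42 were detected in all 21 cells of each class. The others were detected in fewer. Esrrb was in 17 Stat3-high and 20 Stat3-low cells, Fgf4 in 16 and 19, and Prdm14 in 12 and 18. Sox2 was in 12 Stat3-high and 14 Stat3-low cells, and Klf2 in 12 of each class. The trophectoderm factors Cdx2 and Elf5 were each detected in 0 Stat3-high cells and 1 Stat3-low cell. Of the other trophectoderm markers, Krt8 was detected in all 21 cells of each class, Krt18 in 15 Stat3-high and 17 Stat3-low cells, Tfap2c in 16 Stat3-high and 14 Stat3-low, Gata3 in 10 Stat3-high and 9 Stat3-low, and Eomes in 6 Stat3-high and 10 Stat3-low. The oocyte genes Bmp15, Oosp1 and H1foo were at 0 in both classes, Gdf9 was detected in 1 Stat3-high cell at 26.2 CPM, and Zp3 in 10 Stat3-high and 14 Stat3-low cells (up to 241 CPM in Stat3-high and 158 CPM in Stat3-low).

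Cells of an embryo are not independent, so counts were summed per embryo and class, and Stat3-high was compared with Stat3-low within the 4 embryos that held both. The sums held 12544574 to 36633936 counts in Stat3-high and 27189934 to 47642243 in Stat3-low. No gene passed an adjusted p of 0.05 in edgeR's quasi-likelihood test: 0 of 10110 genes (0%), with a smallest Benjamini-Hochberg adjusted p of 1. At an unadjusted p under 0.05 there were 270 genes (2.67%), of which 157 were higher in Stat3-high cells. The limma-trend test called 0 genes on embryo means and 0 on single cells. DESeq2 on the same sums called 512 of 11930 genes (4.29%), 353 higher and 159 lower in Stat3-high cells. Without embryo 22, which is taken up below, edgeR called 0 genes and 361 had an unadjusted p under 0.05. The median SE of a log2 fold change was 1.55 in the edgeR fit. These results are for differences per cell count total; more Stat3 mRNA relative to other mRNA and a larger amount of Stat3 in absolute terms cannot be told apart.

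Values below are CPM of the summed counts after TMM scaling, in the order embryos 16, 20, 21 and 22. The 10 genes with the smallest p on each side are described although none passed; being picked from this comparison, they carry no support for it. Over all genes, the 4 Stat3-high sums lay above the 4 Stat3-low sums in 138 genes (1.36%) and below them in 92 (0.91%).

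The 10 genes with higher values in Stat3-high cells reached 10 CPM in 3 to 11 of the 21 Stat3-high cells and 1 to 6 of the 21 Stat3-low cells. Galnt1, the enzyme that starts O-linked glycosylation, had 43.6, 60.4, 113 and 70.8 CPM in Stat3-high sums, against 3.25, 2.79, 8.01 and 0.999 CPM in Stat3-low sums. Its groups did not overlap, and the log2 fold change was 4.50 ± 1.21 (SE; unadjusted p = 0.00419, adjusted p = 1). In single cells Galnt1 reached 10 CPM in 11 of 21 Stat3-high and 4 of 21 Stat3-low cells. Tmc6, a transmembrane channel-like protein, had 126, 97.8, 84.7 and 93.4 CPM in Stat3-high sums, against 5.82, 3.005, 27.4 and 2.75 CPM in Stat3-low sums. Its Stat3-high sums were the most even of the 10 genes (101 ± 18.1 CPM, SD), and its log2 fold change was 4.15 ± 1.13. Adprm, a phosphodiesterase of ADP-ribose, had 58.2, 20.8, 77.5 and 12.1 CPM in Stat3-high sums, against 0.191, 0.469, 0.769 and 0.250 CPM in Stat3-low sums. The groups again did not overlap (log2 6.45 ± 1.48), yet 52.7% of the Adprm counts of Stat3-high cells came from 1 cell and the median Stat3-high cell had 0.699 CPM. Prcp, a lysosomal carboxypeptidase, reached 10 CPM in 10 Stat3-high cells and 1 Stat3-low cell (log2 5.84 ± 1.66). The others were the zinc finger genes Zfp35, Zfp953 and Zfp949, the endoplasmic reticulum translocation factor Sec63, the thyrotropin-releasing hormone precursor Trh and the lipoprotein lipase Lpl, with log2 fold changes from 4.35 (Lpl) to 8.31 (Zfp953). Zfp953 had 9 counts in all Stat3-low sums together and Trh 43. Among the 10 genes, the cell with the most counts gave 29.5% to 70.6% of the Stat3-high counts. On embryo means of log2(CPM + 1), which weight cells equally, limma's differences for the same genes were 1.19 to 2.36. DESeq2 called all 10.

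**Figure D2:**
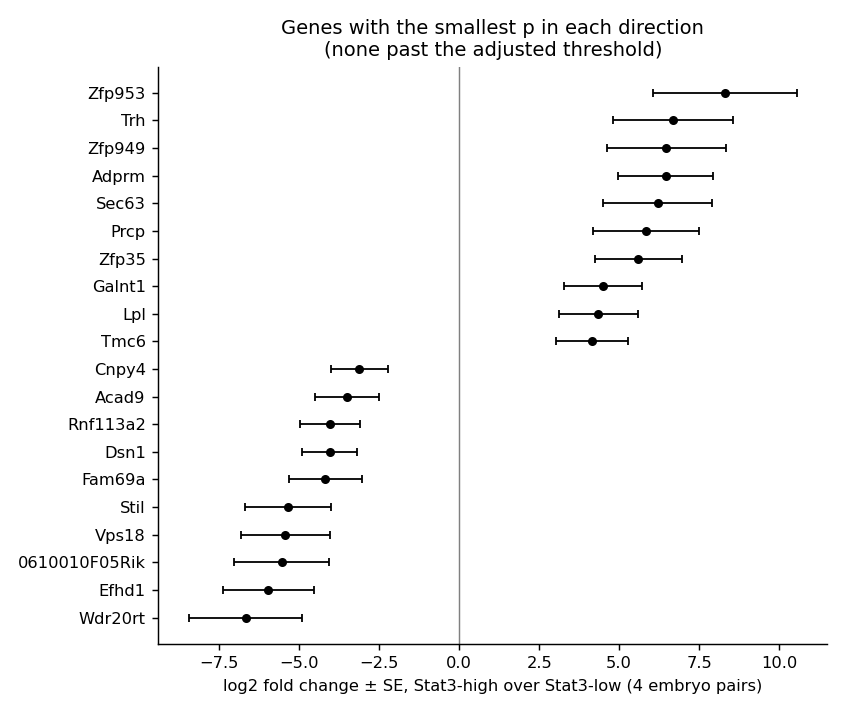
The log2 fold change (points, ± SE from the edgeR fit over 4 embryo pairs) of the 10 genes with the smallest p on each side, Stat3-high over Stat3-low. Values run from 8.31 for Zfp953 to -6.68 for Wdr20rt, and none of the 20 genes passed the adjusted threshold.

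The 10 genes with lower values in Stat3-high cells all had their highest sum in the Stat3-low cells of embryo 22. Its Stat3-low sum was 3 cells, and 1 of them supplied 73.4% of the 27189934 counts. In 9 of the 10 genes that cell gave more than 50% of the embryo's Stat3-low counts of the gene. The cell's share of all counts was above that mark too, so this count does not set the 10 genes apart. By gene the share was 0% for 0610010F05Rik, 64.2% for Fam69a, 73.6% for Acad9 and up to 99.9% (Stil). Dsn1, a kinetochore subunit, had 1.13, 6.401, 0.909 and 29.1 CPM in Stat3-high sums, against 6.07, 63.4, 48 and 785 CPM in Stat3-low sums. It was lower in Stat3-high cells in each embryo, though the groups overlapped, and the log2 fold change was -4.05 ± 0.87 and -3.79 without embryo 22. Stil, which centriole duplication requires, had 0.273, 0.149, 0.0758 and 3.27 CPM in Stat3-high sums, against 5.30, 11.7, 2.64 and 193 CPM in Stat3-low sums. Its high value in embryo 22 came almost wholly from the single deep cell (99.9% of those counts). Rnf113a2 and Acad9 were spread over more cells. Rnf113a2, an intronless RING-finger gene related to a spliceosome component, had 0.479, 9.23, 9.90 and 23.3 CPM in Stat3-high sums, against 32.9, 84.2, 66.3 and 486 CPM in Stat3-low sums. The groups did not overlap (log2 -4.04 ± 0.95), and 8 Stat3-high and 15 Stat3-low cells reached 10 CPM. Acad9, an assembly factor of respiratory complex I, had 18.97, 1.04, 3.51 and 19.4 CPM in Stat3-high sums, against 50.8, 35.9, 53.3 and 215 CPM in Stat3-low sums. Its groups did not overlap either (log2 -3.51 ± 1.003), with a median cell at 2.79 CPM in Stat3-high and 57.5 CPM in Stat3-low. The remaining 6 were Efhd1, a mitochondrial calcium-binding protein, Vps18, a subunit of the vesicle-tethering complexes HOPS and CORVET, Wdr20rt, Fam69a, Cnpy4 and 0610010F05Rik. Their log2 fold changes lay between -3.13 (Cnpy4) and -6.68 (Wdr20rt), and 92.3% of the Stat3-low Cnpy4 counts came from 1 cell. Wdr20rt and Rnf113a2 are close copies of other genes, so their counts are uncertain where reads fit both. On embryo means of log2(CPM + 1) the differences of the 10 genes were -2.72 (Rnf113a2) to -0.35 (Cnpy4), and DESeq2 called 9 of them.

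Ranking genes over all 64 cells uses every Stat3 value and weights cells equally. Spearman correlation with Stat3 was taken on log2(CPM + 1) after subtracting each embryo's mean, for 8347 genes detected in at least 32 cells. From the 5th to the 95th percentile it ran from -0.21 to 0.24; the cells come from 5 embryos and differ in depth, and no p is given. The 5 highest were Heatr6 (0.52), Jpt2 (0.49), Cdca7 (0.45), Golga7 (0.45) and Map2k3 (0.43), and 14 genes exceeded 0.4. The 5 lowest were Slc9b1 (-0.45), 4933434E20Rik (-0.42), U2af1 (-0.41), Cd320 (-0.40) and Slx4ip (-0.40). These 10 genes were picked over the cells that also form the classes, so the class values that follow describe that choice and carry no support for it.

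Golga7 (chromosome 8, 23241346 to 23257074), a partner of the enzyme that palmitoylates Ras proteins, had 288, 204, 309 and 129 CPM in Stat3-high sums, against 165, 90.8, 102 and 105 CPM in Stat3-low sums. It was higher in Stat3-high cells in 4 of 4 embryos, averaging 233 ± 82.5 CPM in Stat3-high and 115 ± 33.3 CPM in Stat3-low sums (SD), and the sums overlapped (log2 0.97 ± 0.52). In single cells it ranged from 18.9 to 668 CPM with a median of 275 in Stat3-high cells, and from 0.201 to 358 CPM with a median of 73.1 in Stat3-low cells. Jpt2 (chromosome 17, 24937419 to 24960689), a member of the Jupiter family of microtubule-associated proteins, had 131, 561, 191 and 219 CPM in Stat3-high sums, against 10.4, 80.9, 131 and 91.7 CPM in Stat3-low sums. Every Stat3-high sum was above the highest Stat3-low sum (log2 2.06 ± 0.70), and 21 Stat3-high and 14 Stat3-low cells reached 10 CPM. Map2k3 (chromosome 11, 60932033 to 60952811), the kinase that activates p38, had 21.3, 53.6, 73.0 and 105 CPM in Stat3-high sums, against 3.14, 9.67, 3.0 and 1.62 CPM in Stat3-low sums. Its sums did not overlap (log2 3.92 ± 1.15), and 10 Stat3-high and 0 Stat3-low cells reached 100 CPM, although 5 Stat3-high cells stayed under 10 CPM. Heatr6, a HEAT-repeat protein, had the highest correlation but overlapping sums (log2 3.43 ± 2.41), and reached 10 CPM in 14 Stat3-high and 5 Stat3-low cells.

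Cdca7 (chromosome 2, 72476159 to 72486893), a cofactor of the chromatin remodeller HELLS that is active in S phase, had 96.0, 112, 234 and 202 CPM in Stat3-high sums, against 7.71, 51.6, 49.5 and 1.94 CPM in Stat3-low sums. The groups did not overlap, with a log2 fold change of 3.25 ± 1.10. At least 100 CPM was reached in 13 Stat3-high and 3 Stat3-low cells. Its promoter is shown because it holds the palindrome TTCNNNGAA, the form of site that STAT dimers bind. The motif reads the same on both strands. Both sequences below are the 250 bases before the start of the gene in RefSeq's GRCm38.p6 annotation, with motif matches in capitals (Cdca7 at chr2:72475969-72476218, plus strand, and Zfp953 at chr13:67360573-67360822, minus strand). In GENCODE, the source of the gene positions in this text, both genes begin inside these stretches.
Cdca7: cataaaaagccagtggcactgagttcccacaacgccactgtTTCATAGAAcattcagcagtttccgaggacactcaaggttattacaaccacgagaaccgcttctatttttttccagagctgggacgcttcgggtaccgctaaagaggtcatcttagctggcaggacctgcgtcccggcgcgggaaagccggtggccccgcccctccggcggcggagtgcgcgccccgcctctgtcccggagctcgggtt
Zfp953: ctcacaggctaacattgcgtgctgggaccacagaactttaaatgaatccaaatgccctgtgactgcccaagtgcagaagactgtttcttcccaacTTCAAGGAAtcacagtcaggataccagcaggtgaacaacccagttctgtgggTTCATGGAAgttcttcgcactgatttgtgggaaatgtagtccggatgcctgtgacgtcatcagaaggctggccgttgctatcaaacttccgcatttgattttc
The match in Cdca7 begins 209 bases before the RefSeq start, and those in Zfp953 begin 155 and 103 bases before theirs. Of the 34 named genes with a promoter in the table, 3 held the motif (Cdca7, Zfp953 and Otx2), or 8.82%, against 8.13% of 27025 genes in all. A match describes letters and not binding.

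**Figure D3:**
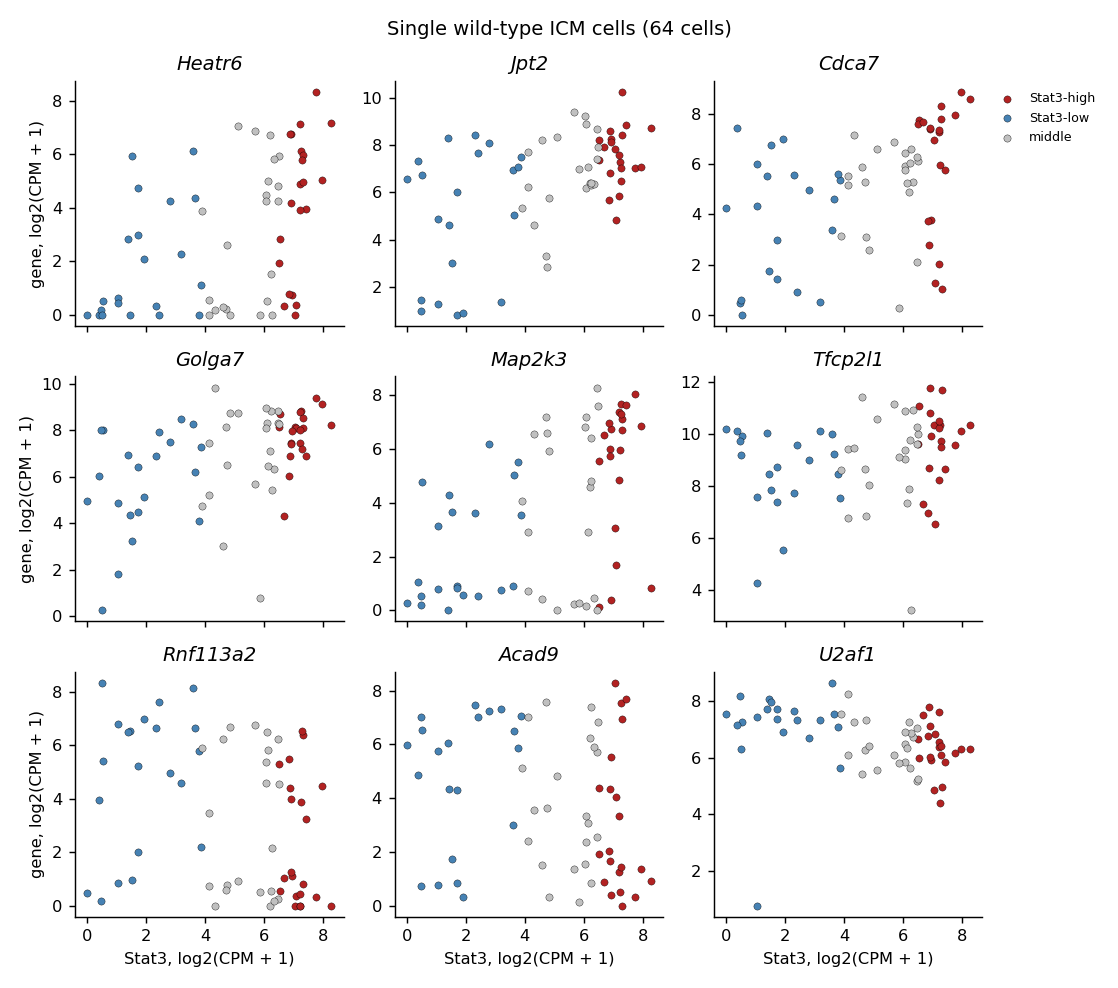
Expression of 9 genes against Stat3 in the 64 wild-type ICM cells, both as log2(CPM + 1), coloured by class. Map2k3, Heatr6, Rnf113a2 and Acad9 show cells near 0 and cells well above it in each class, while Tfcp2l1 and U2af1 are each under 10 CPM in 1 of the 64 cells; Heatr6 has the highest correlation (0.52).

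On the other side, U2af1, which recognises the 3' splice site, had 66.1, 75.5, 114 and 131 CPM in Stat3-high sums, against 176, 219, 149 and 170 CPM in Stat3-low sums. All Stat3-high sums lay below all Stat3-low sums, by 0.92 ± 0.61 on the log2 scale, and the medians over cells were 78.4 CPM in Stat3-high and 162 CPM in Stat3-low. Slx4ip, a partner of the nuclease scaffold SLX4, reached 10 CPM in 2 Stat3-high and 11 Stat3-low cells (log2 -4.57 ± 1.32). 4933434E20Rik, for which no role is given here, also had non-overlapping sums (102 ± 40.4 CPM in Stat3-high and 437 ± 397 CPM in Stat3-low, SD). The sodium/hydrogen exchanger Slc9b1 and the vitamin B12 carrier receptor Cd320 had log2 fold changes of -2.72 ± 1.22 and -2.0 ± 0.75, with overlapping sums.

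In edgeR no member of Stat3's own pathway was called. Of 44 listed JAK/STAT genes 29 were measured, 0 passed edgeR's threshold in either direction and 0 had an unadjusted p under 0.05; 18 had positive and 11 negative log2 fold changes (62.1% positive, against 51.2% of all genes tested), with a median of 0.60 against 0.04. The median of the list was -0.19 without embryo 22 and 0.019 without embryo 20. The receptor genes Il6st and Lifr were uneven over the embryos. Il6st, which encodes gp130, had 62.6, 136, 39.2 and 24.5 CPM in Stat3-high sums, against 37.6, 30.2, 55.1 and 739 CPM in Stat3-low sums. Lifr had 3.498 to 18.1 CPM in Stat3-high sums and 0.312 to 20.9 CPM in Stat3-low sums. Among the inhibitors, the SUMO ligase Pias2 had the smallest p of the list, with 158, 221, 68.0 and 32.9 CPM in Stat3-high sums, against 37.7, 51.6, 108 and 0.687 CPM in Stat3-low sums (log2 2.16 ± 1.12, unadjusted p = 0.0844). Pias4 and Socs4 had log2 fold changes of 2.41 ± 1.77 and 2.41 ± 1.82. Cish, an inhibitor induced mainly through STAT5, had 33 counts in the 4 Stat3-high sums and 2027 in the 4 Stat3-low sums, with 0 Stat3-high and 4 Stat3-low cells at 10 CPM or more (log2 -7.49 ± 4.003). DESeq2 called Cish (adjusted p = 0.00505) and no other member of the list, while it called 4.29% of all genes. Il6st, Lifr and the genes Jak1, Socs3, Id2, Ccne1, Trp53inp1, Tfcp2l1, Klf4, Nanog, Pou5f1, Gata6, Krt8 and Tead4 lie outside the rule for named genes and were chosen after their values were seen.

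Known STAT3 targets were likewise mixed: 22 of 27 were measured, 13 with positive and 9 with negative log2 fold changes, 0 past the threshold in edgeR or DESeq2, with a median of 0.40 (0.052 without embryo 20 and 0.20 without embryo 22). Socs3, the feedback inhibitor, had 34.9, 30.4, 0 and 0 CPM in Stat3-high sums, against 22.4, 0.720, 0 and 0.250 CPM in Stat3-low sums, so embryos 21 and 22 had next to none in either class. Tfcp2l1, a naive pluripotency factor and STAT3 target in embryonic stem cells, had 1308, 2358, 921 and 324 CPM in Stat3-high sums, against 462, 759, 388 and 1046 CPM in Stat3-low sums. It was higher in Stat3-high cells in 3 of 4 embryos, less than the spread between them (log2 0.78 ± 0.60, unadjusted p = 0.222), and its correlation with Stat3 over the 64 cells was 0.36. The cell medians were 955 CPM in Stat3-high and 509 CPM in Stat3-low, and 21 of 21 cells in each class exceeded 10 CPM. Klf4 had 2.61 to 62.5 CPM in Stat3-high sums and 3.73 to 66.8 CPM in Stat3-low sums. The anti-apoptotic Mcl1 had the smallest p of the list, with 17.5, 14.3, 18.96 and 38.1 CPM in Stat3-high sums, against 11.3, 114, 70.1 and 481 CPM in Stat3-low sums (log2 -2.08 ± 0.97, unadjusted p = 0.0589). The median of the target list turned negative when 16 cells a class were used (-0.33) or when totals were rescaled before ranking (-0.24).

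In edgeR no lineage marker was called; DESeq2 called 0 naive, PrE or formative markers and 3 trophectoderm markers, given below. Naive pluripotency and EPI markers had 13 positive and 15 negative log2 fold changes (median -0.10, and 0.09 without embryo 22), and PrE markers 15 positive and 7 negative (median 0.76, and -0.01 without embryo 22). Over single cells the summed CPM of 9 EPI markers had a median of 2351 in Stat3-high and 2323 in Stat3-low cells, and that of 10 PrE markers 628 in Stat3-high (range 11.3 to 2427) and 335 in Stat3-low cells (range 41.6 to 2197). Embryo 22 stood apart here: Nanog was at 27.9 CPM in its Stat3-high sum and 1719 CPM in its Stat3-low sum, and Gata6, a PrE factor, at 55.2 CPM in the Stat3-high and 1.31 CPM in the Stat3-low sum. Sall4, a pluripotency factor, had 91.0, 210, 264 and 119 CPM in Stat3-high sums, against 300, 336, 371 and 480 CPM in Stat3-low sums, without overlap (log2 -1.22 ± 0.49, unadjusted p = 0.0337). Pou5f1 was lower in Stat3-high sums in 4 of 4 embryos (70.5 to 455 CPM, against 199 to 912 CPM in Stat3-low sums; log2 -0.86 ± 0.44). Sparc, a PrE matrix protein, had a log2 fold change of -0.74 ± 0.43 in the sums. Its cell medians went the other way, at 513 CPM in Stat3-high and 365 CPM in Stat3-low, and limma's difference on embryo means was -0.08. Formative and primed markers had 5 positive and 1 negative values of 6 (median 1.53). Otx2 had 23.5 to 56.3 CPM in Stat3-high sums and 0.437 to 22.2 CPM in Stat3-low sums (log2 2.38 ± 1.48). Single cells did not show this difference for Otx2. The cell medians were 0.514 CPM in Stat3-high and 0.864 CPM in Stat3-low, and 7 and 5 cells reached 10 CPM. The correlation of Otx2 with Stat3 over the 64 cells was -0.02.

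Of 12 trophectoderm markers 9 were positive (median 2.13, with 0.44 without embryo 16, 0.91 without embryo 22 and 3.91 without embryo 20), and 2 had an unadjusted p under 0.05. These were Krt18, an epithelial keratin, with 34.4, 102, 100 and 129 CPM in Stat3-high sums, against 2.08, 44.2, 13.7 and 3.93 CPM in Stat3-low sums (log2 3.32 ± 1.13), and the transcription factor Tead4 (log2 3.43 ± 1.30). DESeq2 called Krt18 (adjusted p = 0.0111), Tead4 (adjusted p = 0.00673) and Id2, an inhibitor of bHLH factors (adjusted p = 0.0291), all higher in Stat3-high cells. Over all genes it called 4.29%. Krt8, the partner keratin of Krt18, had the opposite sign in the sums (log2 -1.24 ± 0.57, with 198 ± 178 CPM in Stat3-high and 392 ± 179 CPM in Stat3-low, SD). Its cell medians did not share that sign, at 170 CPM in Stat3-high and 135 CPM in Stat3-low. The summed CPM of 7 trophectoderm markers ran from 25.5 to 1170 in Stat3-high and from 0.357 to 1374 in Stat3-low cells. Cdx2 and Elf5 were at or near 0 in both classes, as given above.

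Genes of FGF/ERK signalling, immediate early response, cell death and the cell cycle gave no called member in edgeR. FGF/ERK targets had 3 positive and 13 negative log2 fold changes (median -0.86), and Fosl1, an AP-1 subunit, had 0 Stat3-high and 4 Stat3-low cells at 10 CPM or more and was called by DESeq2 (adjusted p = 0.0287). Immediate early and heat shock genes had 4 positive and 8 negative values (median -0.30). The antiproliferative Btg2 (log2 2.89 ± 2.36) changed sign with the model, as given in the closing section. Among p53 targets and apoptosis genes, 11 of 18 were positive (median 0.64); the BH3-only gene Pmaip1 had 3.73, 234, 472 and 246 CPM in Stat3-high sums, against 0.902, 43.9, 267 and 71.4 CPM in Stat3-low sums, higher in each embryo (log2 1.77 ± 0.58, unadjusted p = 0.0126). DESeq2 called Trp53inp1 of that list, higher in Stat3-high cells (adjusted p = 0.0255), and 2 S phase genes, Cdca7 (higher, adjusted p = 0.0317) and Ccne1 (lower, adjusted p = 0.0214). For scale, DESeq2 called 4.29% of all genes, and the calls in these lists and Fosl1 are near that share. S phase genes (17 of 30 positive, median 0.14) and G2/M genes (16 of 30, median 0.08) lay close to the median of all genes. Kif20b, a mitotic kinesin, had non-overlapping sums of 65.9 to 163 CPM in Stat3-high and 10.5 to 42.8 CPM in Stat3-low (log2 2.0 ± 0.94).

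Metabolic and epigenetic lists gave no called member in edgeR either. DESeq2 called 1 of 31 TCA cycle genes and 1 of 18 DNA methylation genes, Uhrf2 (adjusted p = 0.0205), both higher in Stat3-high cells. It called 4.29% of all genes, so 1 call in a list of this size is near that share. Uhrf2 was detected in 10 Stat3-high and 16 Stat3-low cells, and 8 and 1 of them reached 10 CPM. TCA cycle genes had 16 of 31 positive (median 0.12), glycolysis genes 10 of 18 (median 0.23, with -0.36 without embryo 22 and -0.12 without embryo 16), DNA methylation genes 10 of 18 (median 0.10), imprinted genes 16 of 31 (median 0.03, and -0.17 without embryo 20) and threonine and one-carbon genes 8 of 19 (median -0.32). Uhrf2, a reader of modified DNA (4.98 ± 2.89), the complex II subunit Sdha (1.33 ± 0.76), the serine pathway enzyme Psat1 (-1.07 ± 0.64), the pyruvate dehydrogenase kinase Pdk1 (5.48 ± 1.84, on 356 counts in Stat3-high and 5 in Stat3-low) and the imprinted Impact (-2.03 ± 0.82) are among the list members with the smallest p, as log2 fold changes.

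**Figure D4:**
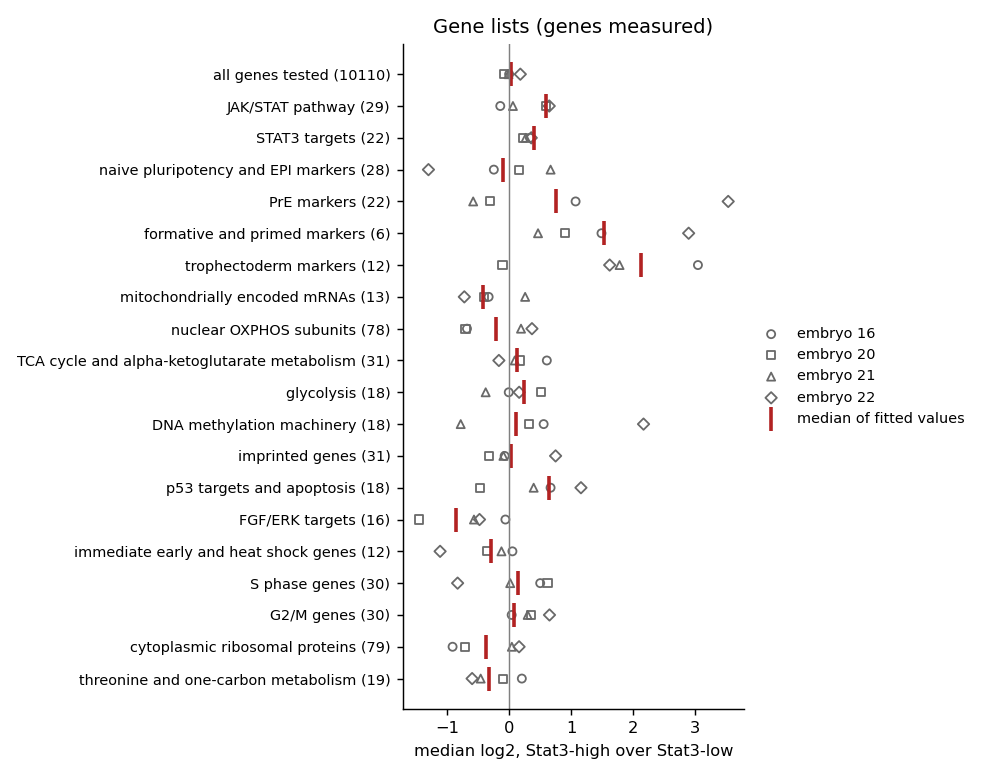
Median log2 fold change, Stat3-high over Stat3-low, of each gene list (red bars, from the edgeR fit; number of genes measured in brackets) and of log2(CPM + 1) differences in each of 4 embryos (open symbols). The median of all genes is 0.04. The 4 embryos lie on both sides of 0 except for STAT3 targets, formative and primed markers and G2/M genes (all above 0) and FGF/ERK targets (all below 0).

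Of 79 cytoplasmic ribosomal protein genes, 76 had negative log2 fold changes (median -0.38, and -0.20 without embryo 16), 59 of 78 nuclear OXPHOS subunits were negative (median -0.21), and so were 12 of 13 mitochondrially encoded mRNAs (median -0.43); none passed and none had an unadjusted p under 0.05. Rplp1, of the ribosomal stalk, had 492, 413, 428 and 675 CPM in Stat3-high sums, against 1023, 727, 504 and 998 CPM in Stat3-low sums (log2 -0.67 ± 0.37). The mitochondrial complex I gene mt-Nd5 had 2342 ± 1379 CPM in Stat3-high and 3635 ± 1284 CPM in Stat3-low sums (SD; log2 -0.72 ± 0.40). The embryos differed. As differences of log2(CPM + 1) between the Stat3-high and Stat3-low sums, the ribosomal protein median was -0.91, -0.71, 0.044 and 0.16 in embryos 16, 20, 21 and 22. The OXPHOS median was -0.68, -0.70, 0.19 and 0.37. Deep cells weigh more in these sums. The share of all counts in ribosomal protein genes, as embryo medians over cells, was 3.66%, 4.39%, 5.27% and 4.27% in Stat3-high, against 5.14%, 6.001%, 5.05% and 5.76% in Stat3-low cells. It was lower in Stat3-high cells in 3 of 4 embryos (exact two-sided sign-flip permutation p = 0.25, with 0.125 the smallest possible). Ribosomal protein genes have many processed pseudogenes, and whether reads were shared with them was not tested.

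Transcript length moved with the same split. Among protein-coding genes the median log2 fold change was -0.16 in the shortest of 4 equal groups by total exon length, 0.09 and 0.24 in the next groups and 0.43 in the longest. Stat3 itself has 9527 exonic bases, in the longest group, and the median of the ribosomal protein list is 1770. The order held in embryos 16, 20 and 22 and was reversed in embryo 21. It was absent with the title letter in the model (-0.10 in the shortest and -0.03 in the longest group), where 36 of 79 ribosomal protein genes were positive (median -0.01). With totals rescaled by TMMwsp before ranking, 19 of 79 were positive (median -0.11). The OXPHOS direction turned in both settings, with 50 of 78 subunits positive with the letter (median 0.10) and 45 of 78 with TMMwsp totals (median 0.068). The letter fit used sums per embryo, class and letter and kept fewer genes (12 STAT3 targets, against 22). Other settings kept both directions. Ranked within each embryo, 0 of 79 ribosomal protein genes (median -0.86) and 7 of 78 OXPHOS subunits (median -0.76) were positive. Thinned to 1000000 counts, 0 of 79 and 13 of 78 were positive (medians -0.39 and -0.30). Length medians within embryos were -0.36 in the shortest and 0.63 in the longest group. The part of depth, letter and length in these values was not tested further.

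**Figure D5:**
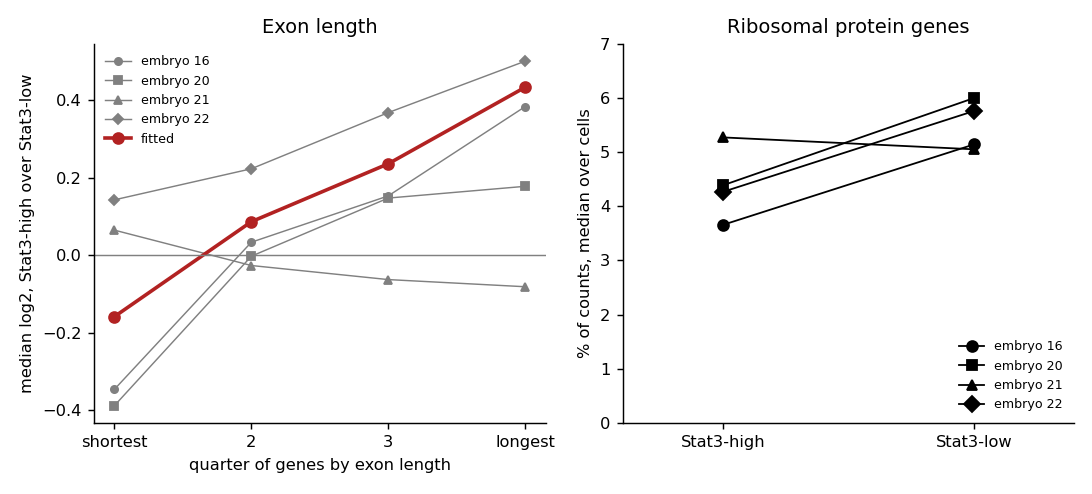
Left, median log2 difference, Stat3-high over Stat3-low, of protein-coding genes in 4 groups by exon length, fitted (red) and per embryo (grey, log2(CPM + 1)). Right, percent of counts in ribosomal protein genes, as median over cells, in Stat3-high and Stat3-low cells of 4 embryos; it is lower in Stat3-high cells in 3 of them.

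The same comparison was possible on a small scale at E3.75, in WT cells that the ranking had not used. There Stat3 was present at some level in each cell, from 60.7 to 271 CPM in 19 EPI cells and from 26.3 to 163 CPM in 10 PrE cells. Cells were ranked within each lineage, which left EPI cells of embryo 1 and PrE cells of embryo 2 as the only pairs. Over all embryos, Stat3 was 167 to 271 CPM in Stat3-high and 60.7 to 134 CPM in Stat3-low EPI cells. In PrE cells it was 153 to 163 CPM in Stat3-high and 26.3 to 106 CPM in Stat3-low, a smaller contrast than at E3.5. Within the EPI pair the contrast was 213 and 167 CPM in 2 Stat3-high cells, against 134 CPM in 1 Stat3-low cell. Within the PrE pair it was 153 to 163 CPM in 3 Stat3-high cells, against 45.1 and 106 CPM in 2 Stat3-low cells. In these pairs edgeR called 0 of 11346 genes, and 316 (2.79%) had an unadjusted p under 0.05. Of the 10 genes higher in Stat3-high ICM cells 7 were positive here, where 55.5% of all genes tested were, and of the 10 lower ones 4 were negative; 0 of the 20 had an unadjusted p under 0.05. Over the 29 WT cells of E3.75, Stat3 correlated positively with 3 of the 8 higher genes that were detected in at least 32 ICM cells (median -0.011) and negatively with 5 of 7 lower ones (median -0.11). These cells come from 3 embryos and are not replicates. The spread of such correlations over all genes at E3.75 is not given, so the values are a description. The correlation with Stat3 was 0.50 for Golga7 and 0.25 for Jpt2, against 0.45 and 0.49 in the ICM. It was 0.09 for Heatr6 and Map2k3, -0.06 for Cdca7 and -0.04 for Tfcp2l1. Among the 5 genes with the lowest correlation in the ICM, it was -0.27 for Slc9b1 and -0.05 for U2af1. For 4933434E20Rik, Cd320 and Slx4ip it was positive, at 0.08, 0.18 and 0.34.

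MUT embryos give further values of the same genes, with the limit that the ICM comparison shares its WT cells with the ranking. The 10 higher and 10 lower genes were picked by p and needed at least 10 CPM in 1 class mean of these WT cells. Such picking can raise the WT mean, so lower MUT values in the ICM carry no support for either list. Of the 10 genes higher in Stat3-high cells, 8 had lower values in MUT than in WT ICM, where 52.4% of all genes tested had log2 values below 0. In EPI it was 2 of 10 (47.5% of all genes below 0) and in PrE 1 of 8 measured (48.3%), so the direction seen in the ICM was not seen in the lineages that share no cells with it. Of the 10 genes lower in Stat3-high cells, 9 also had lower values in MUT ICM, the same side as in Stat3-high cells, and 5 of 9 in EPI and 7 of 10 in PrE. Golga7 averaged 111 ± 44.8 CPM in MUT ICM and 229 ± 94.8 CPM in WT ICM (SD, n = 5 embryos each), with a log2 fold change of -1.04 ± 0.45 that did not pass (edgeR adjusted p = 0.734). Its log2 fold change was -0.38 in EPI and -0.06 in PrE. For Heatr6 the MUT over WT log2 fold change in the ICM was -1.31 ± 0.89 (edgeR adjusted p = 0.856), and for Jpt2, Cdca7 and Map2k3 it was 0.09, -0.38 and 0.22. The 5 genes with the lowest correlation were also lower in MUT ICM, the same side as in Stat3-high cells. Their values were -1.52 (Slc9b1), -0.29 (U2af1), -0.49 (Cd320), -1.65 ± 0.52 (4933434E20Rik) and -2.35 ± 0.91 (Slx4ip). None passed (edgeR adjusted p = 0.727 for 4933434E20Rik and Slx4ip).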

How the data were processed

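The authors deposited raw, unnormalized counts for 49671 gene rows in 171 single cells. STAR, HTSeq and the build mm10 are named in the submitters' processing notes; versions, strand and multi-mapping settings are not stated, so reads of overlapping, antisense and duplicated genes may be shared. Gene names, positions and exon lengths came from GENCODE vM21 (49326 rows matched). Embryo numbers and letters were read from the titles, which do not explain them. No 2 cells had identical counts. Wild-type ICM cells ranged from 167101 to 25095390 counts. Intervals are 95% Poisson intervals and cover counting error only; doublets were not searched for.

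Cells were ranked on CPM over all counts. Raw counts were summed per embryo and class and tested with edgeR 4.0.16 (R 4.3.3; TMM, filterByExpr with a minimum count of 10, robust quasi-likelihood fit) with embryo as block and Benjamini-Hochberg adjustment at 0.05; Stat3 was left out of the table tested. The SE is the log2 fold change over the square root of F and restates that test. Same-embryo sums come from the same animal; their deviations correlated at 0.166, 0.0823, 0.109 and 0.137, against at most 0.00712 between different embryos. Embryos are the replicates, and nothing says that they came from separate litters. The design foresaw 5 embryo pairs; 4 held both classes. Alternatives used DESeq2 1.42.0, limma 3.58.1 (trend on log2(CPM + 1)), other class sizes, denominators, thinning to 1000000 counts (3 cells were too shallow), each embryo left out and the title letter. Python 3.11.15 with scipy 1.17.1 made the exact tests.

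Named genes were Stat3, the 10 higher and 10 lower genes with the smallest p among those with at least 10 CPM in 1 class mean and the same sign without each embryo, 4 members of the JAK/STAT list and 1 of each other list by p, and the 5 highest and 5 lowest correlations. The cells, lists and rules were chosen with earlier results of these data known. Promoters came from RefSeq. The values of 1 gene are not reported here.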

Additional observations from a re-analysis of the deposited data

Results flagged for a closer look

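In groups of 4 embryo sums, a sum was listed when its gap to the next value, over the group's range, exceeded Dixon's 95% critical value. By this rule 33 of 124 groups were listed. A rate of 1 in 20 groups holds only for normally distributed values of genes not picked for them. These are uneven CPM values of genes largely picked from this comparison, so the number listed is not set against chance. Of these, 13 were the Stat3-low sum of embryo 22, in each case the highest Stat3-low value. They were Nanog at 1719 CPM, Cnpy4 at 1130, Psat1 at 1111, 4933434E20Rik at 1027, Dsn1 at 785, Il6st at 739, Efhd1 at 516, Rnf113a2 at 486, Vps18 at 440, Slx4ip at 386, Wdr20rt at 280, Acad9 at 215 and Stil at 193 CPM. A single deep cell gave 73.4% of that sum. Its part in these values was measured gene by gene as the share of the embryo's Stat3-low counts. That share ran from 73.6% (Acad9) to 99.9% (Stil) in the 8 of them that are among the 10 lower genes. It was 70.7% for Nanog, 86.9% for Slx4ip, 88.3% for 4933434E20Rik and 99.4% for Psat1. Shares near 73.4% do not exceed the cell's part of all counts.

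In the Stat3-high sums, Trh at 110, Zfp949 at 96.5 and Kif20b at 163 CPM stood apart in embryo 20, and Krt8 at 463 and Fosl1 at 3.69 CPM in embryo 16. Embryo 22 stood apart for Jak1 at 167, Pdk1 at 14.7, 0610010F05Rik at 6.69, Vps18 at 5.26 and Stil at 3.27 CPM, and embryo 21 for Cish at 0.758 CPM. In the other Stat3-low sums, Lpl at 87.0, Tead4 at 29.9, Zfp35 at 28.98 and Zfp949 at 3.35 CPM stood apart in embryo 20. Tmc6 at 27.4 and Btg2 at 47.3 CPM did so in embryo 21, and Socs3 at 22.4, Sec63 at 3.799 and Prcp at 2.35 CPM in embryo 16.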

How the results depend on the processing

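The edgeR test called 0 genes under every alternative with edgeR or limma, and DESeq2 called 512. The DESeq2 fit lacks the quasi-likelihood spread of edgeR; the cause of the gap was not tested. Genes at an unadjusted p under 0.05 numbered 270 with embryo as the replicate block and 544 with no replicate block, where 0 were called. At E3.75 the count was 0 in each fit that could be made; EPI alone and fits without embryo 1 or 2 were not run, because they left 1 pair.

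Of the log2 fold changes of named genes, Btg2 changed sign, to -0.41 with no replicate block and -0.24 with the top 32 against the bottom 32 cells. List medians that moved by more than their spread over embryos were as follows. For JAK/STAT genes they were 1.11 ranked within each embryo, 0.17 thinned, 0.032 with no low-count filter, 0.18 in DESeq2, 0.17 in limma on embryo means and 0.032 with the letter, and -0.19 to 0.73 leaving out an embryo. For STAT3 targets they were 0.25 with no replicate block, 0.046 ranked within embryos, -0.33 with 16 cells a class, -0.24 with TMMwsp totals, 0.13 thinned, 0.49 without 3 cells of low quality, 0.46 unfiltered, 0.53 in DESeq2, -0.041 and 0.067 in limma on embryo means and single cells, 0.11 with the letter, and 0.052 to 0.58 leaving out an embryo. Trophectoderm markers gave 0.62 unfiltered, 0.57 in DESeq2, 0.62 and 0.50 in limma, 0.14 with the letter, and 0.44 (without embryo 16) to 3.91 (without embryo 20). Glycolysis gave -0.30 with the letter and -0.36 to 0.35 leaving out an embryo, and imprinted genes -0.17 to 0.64. Ranked within embryos, p53 targets gave 1.82, FGF/ERK targets -0.26 and G2/M genes 0.52; G2/M genes also gave 0.60 with 16 cells a class, 0.39 thinned, 0.41 and 0.44 in limma. One-carbon genes gave 0.061 with 32 cells a class. The causes were not tested. With 4 pairs, exact tests cannot pass 0.05.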
